A study of Caenorhabditis elegans with 2 samples.

Results

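The small ribosomal subunit protein genes of *Caenorhabditis elegans* are the 33 protein-coding genes whose symbols start with rps-, together with ubl-1 and rack-1, among 19973 protein-coding genes on the nuclear chromosomes. They were chosen by symbol, and the mitochondrial mrps- genes were not counted among them. The data are peak lists from chromatin immunoprecipitation and sequencing (ChIP-seq) of an eGFP-tagged transcription factor in whole L2 larvae. All samples form 1 group of 2 replicates, which the labels call biological, from strain OP355 (unc-119(tm4063) III; wgIs355), a mixed-sex population carrying an unc-119 mutation and an integrated transgene. On the tagged gene the labels disagree, since mdl-1 is given as source and antibody but ZK337.2 in the description. No second group was compared, and a control library listed in the labels was not analysed here. Whole animals were used, so the lists do not tell in which cells a promoter was occupied.

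The small subunit binds messenger RNA and holds the anticodon end of the transfer RNAs, so that codons are read in its decoding centre. Its proteins sit on a core of ribosomal RNA that is divided into a head, a body and a platform, and cells keep the proteins in balanced amounts. MDL-1 is a worm relative of the Mad proteins, basic helix-loop-helix factors that pair with a Max-like partner and are known to bind the E-box CACGTG. In mammals and flies Mad proteins share their Max partner with Myc, an activator of ribosomal protein genes. Many worm messenger RNAs, those of ribosomal proteins included, receive a spliced leader in place of their original 5′ end. An annotated start can then be a splice site, with transcription starting farther upstream. Of the 33 genes, 25 had an annotated start directly after the letters CAG, the end of a splice acceptor, compared with 22.1% of all protein-coding genes.

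A gene was counted as bound when a peak summit lay between 1000 bp upstream and 200 bp downstream of one of its annotated transcript starts. The authors' set chosen by irreproducible discovery rate (IDR) holds 2103 peaks, with a deposited signal value from 32.5 to 986 and a median of 51.5. These peaks were also the 2103 of highest signal in the authors' list of 28651 peaks on the pooled replicates, so a gene's IDR signal and rank equal its pooled signal and rank. By its name that pooled list holds peaks and background taken as input for IDR, so its lower entries may be background. Each replicate has its own relaxed list of 30000 peaks. For a count of equal length, the 2103 peaks of highest signal in each replicate, called its top list here, were also used. Read depth is unknown, so signals are compared only within a list and ranks across lists. The peak of highest signal in the IDR set lay 97 bp upstream of mdl-1, and why it was the highest was not tested.

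The 101 bp around a bound gene's summit show what the tagged factor's peaks were centred on. All sequences are from RefSeq, build WBcel235 (ce11), and read 5′ to 3′ in the direction of the ribosomal protein gene. Not every bound gene is shown. The first set holds members of high signal, rps-1 (chrIII:4475610-4475710, plus strand), rps-12 (chrIII:5679078-5679178, plus strand) and rps-28 (chrIV:1659205-1659305, plus strand). The set also has rps-18 (chrIV:14825178-14825278, plus strand), whose summit lay at the start of a neighbouring gene, and rps-29 (chrIII:793743-793843, plus strand), the bound member with an E-box. Capitals mark the searched 6-letter motifs on either strand, namely CACGTG in rps-29, GAGAGA on the reverse strand in rps-1, GGGCGG on the reverse strand in rps-28 and AATTAA on the reverse strand in rps-18. In rps-1 capitals also mark the 8-letter word TACGGTAA, and in rps-12 none of the motifs was found.
rps-1: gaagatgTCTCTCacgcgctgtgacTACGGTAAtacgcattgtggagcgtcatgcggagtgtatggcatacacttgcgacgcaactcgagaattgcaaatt
rps-12: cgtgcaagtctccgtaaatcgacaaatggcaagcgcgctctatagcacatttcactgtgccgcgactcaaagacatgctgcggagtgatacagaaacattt
rps-28: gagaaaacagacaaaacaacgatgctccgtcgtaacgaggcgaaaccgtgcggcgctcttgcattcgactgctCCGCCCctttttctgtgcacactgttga
rps-18: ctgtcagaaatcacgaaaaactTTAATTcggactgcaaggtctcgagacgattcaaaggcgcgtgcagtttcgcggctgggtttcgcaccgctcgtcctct
rps-29: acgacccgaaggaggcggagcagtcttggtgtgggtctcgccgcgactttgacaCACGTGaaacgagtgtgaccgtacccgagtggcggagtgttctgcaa

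The second set shows the 8-letter words found at the most member summits, which were picked after the sequences had been counted and are given without a test. GCAGCCAA is in capitals, on either strand, in rps-0 (chrIII:4754307-4754407, minus strand), rps-14 (chrIII:7179786-7179886, minus strand) and rps-21 (chrIII:7189915-7190015, minus strand). TACGGTAA is in capitals, on either strand, in rps-13 (chrIII:6375152-6375252, minus strand) and rps-23 (chrIV:12391285-12391385, minus strand). The window of rps-14 holds GCAGCCAA on both strands. Capitals in this set mark only these words.
rps-0: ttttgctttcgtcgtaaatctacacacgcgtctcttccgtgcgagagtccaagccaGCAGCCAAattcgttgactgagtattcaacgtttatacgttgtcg
rps-14: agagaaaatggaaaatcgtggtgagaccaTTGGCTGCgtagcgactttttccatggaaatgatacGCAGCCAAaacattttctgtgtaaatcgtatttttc
rps-21: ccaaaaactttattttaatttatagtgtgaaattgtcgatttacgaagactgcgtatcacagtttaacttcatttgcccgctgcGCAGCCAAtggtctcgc
rps-13: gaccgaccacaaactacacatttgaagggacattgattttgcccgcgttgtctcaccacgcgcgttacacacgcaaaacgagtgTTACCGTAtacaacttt
rps-23: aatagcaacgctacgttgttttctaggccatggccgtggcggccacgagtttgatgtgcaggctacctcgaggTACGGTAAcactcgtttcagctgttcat

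Of the 33 genes, 17 (51.5%) had an IDR summit in their promoter window, against 6.55% of all protein-coding genes (1308 of 19973). None of the 33 genes lies on the X chromosome, and on the autosomes alone the share of all genes was 6.12% (1056 of 17242). The replicates gave nearly the same share, with 17 genes (51.5%) in the top list of replicate 1, where 6.36% of all genes were bound, and 16 (48.5%) in that of replicate 2, where the figure was 6.46%. The mean over the replicates was 50% ± 2.14 (SD, n = 2). At 13 genes (39.4%) the IDR peak overlapped a top-list peak of both replicates, compared with 4.57% of all genes. Over the whole pooled list 31 genes (93.9%) had a summit in the window, in a list that reached 41.9% of all genes. Entries of the pooled list, which by its name includes background, thus lay in the windows of nearly all small subunit genes. They fell on both sides of the IDR limit, and those outside it need not be binding sites.

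**Figure D1:**
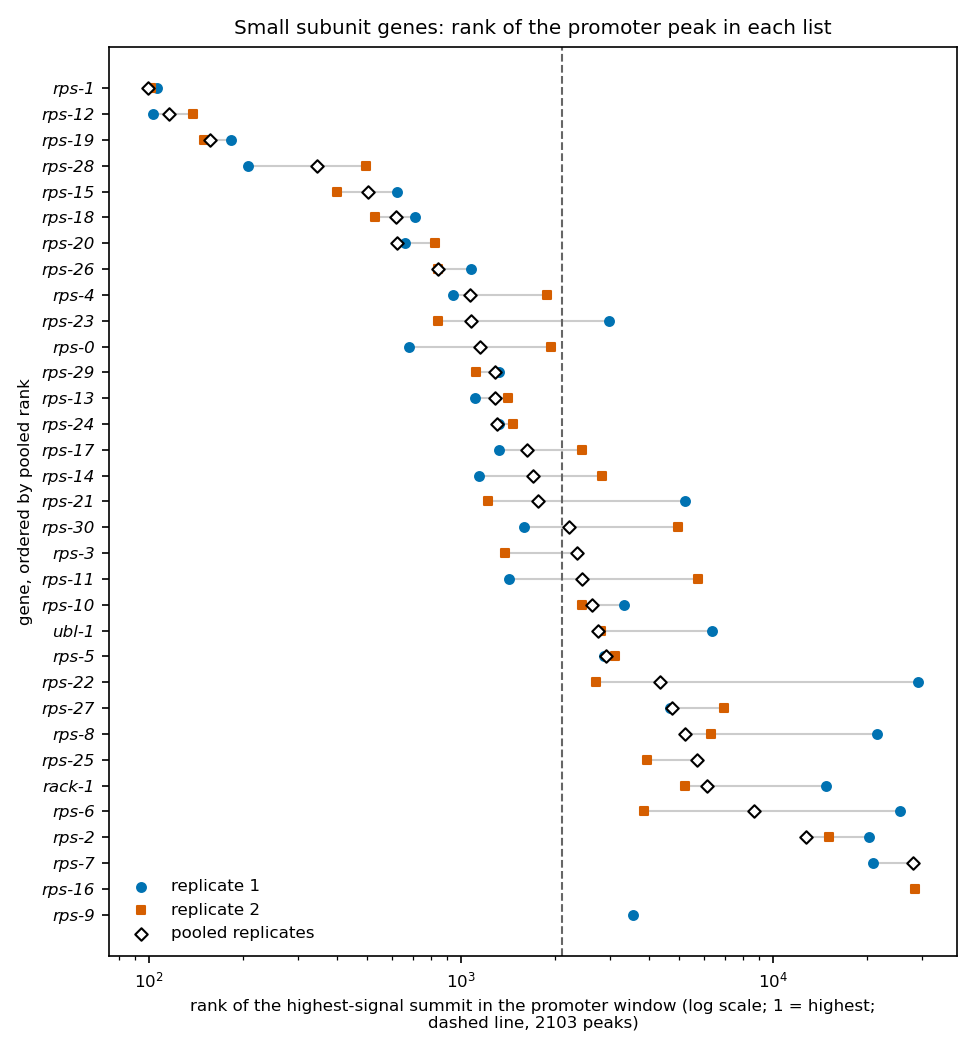
Rank of each of the 33 genes' best promoter peak in the pooled, replicate 1 and replicate 2 lists (log axis, rank 1 is the highest signal), with the length of the IDR set, 2103 peaks, marked. The 17 bound genes range from rank 99 to rank 1758 in the pooled list. The replicates' points lie on either side of the pooled rank at some genes and both behind it at others, such as rps-1 and rps-2. No pooled point exists for rps-16 and rps-9.

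The 12 bound genes of highest signal are described first by their place in the subunit, beginning with the head. The gene rps-12 (WBGene00004481, III, 5679298 to 5680187, plus strand) encodes a protein of the beak of the head. Its promoter peak had a signal of 76.9 in replicate 1 (rank 103), 110 in replicate 2 (rank 138) and 191 in the pool (rank 116). The pooled summit lay 170 bp upstream, the closest to its start among the bound genes, and 123 bp upstream of the divergent gene ska-3, a spindle and kinetochore component. The gene rps-19 (WBGene00004488, I, 9625049 to 9625796, minus strand) encodes a head protein whose human counterpart is mutated in Diamond-Blackfan anaemia. Its signal was 54.9 in replicate 1 (rank 183), 106 in replicate 2 (rank 150) and 162 in the pool (rank 157). The summit was 274 bp upstream of rps-19 and nearer, at 171 bp, to hsr-9, a homolog of the DNA damage protein 53BP1. Both genes were among the 200 highest peaks of each replicate.

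The gene rps-28 (WBGene00004497, IV, 1659691 to 1659997, plus strand) encodes a small protein at the base of the head, near the path of the leaving messenger RNA. It had a signal of 52.0 in replicate 1 (rank 207), 53.3 in replicate 2 (rank 494) and 105 in the pool (rank 345), with the summit 436 bp upstream and no other start nearer. The gene rps-15 (WBGene00004484, I, 8815572 to 8816193, minus strand) encodes a head protein with a tail that reaches towards the decoding site. Its values were 28.3 in replicate 1 (rank 625), 59.8 in replicate 2 (rank 399) and 84.1 in the pool (rank 504), at 371 bp upstream. At both genes the ranks in the replicates lay on either side of the pooled rank. The gene rps-18 (WBGene00004487, IV, 14825679 to 14826477, plus strand) encodes a head protein that forms a bridge to the large subunit. Its signal was 26.1 in replicate 1 (rank 711), 50.8 in replicate 2 (rank 531) and 72.5 in the pool (rank 617). Its summit, 451 bp upstream, lay 36 bp downstream of the start of sec-61.A, which encodes a subunit of the protein channel of the endoplasmic reticulum.

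The gene rps-20 (WBGene00004489, I, 14468332 to 14469103, minus strand) encodes another head protein. It had a signal of 27.4 in replicate 1 (rank 659), 38.6 in replicate 2 (rank 826) and 72.2 in the pool (rank 622), with a summit 250 bp upstream of its start and 147 bp from that of ekl-4, a homolog of the chromatin protein DMAP1. The gene rps-29 (WBGene00004498, III, 794300 to 795031, plus strand) encodes a zinc-binding head protein. Its values were 18.1 in replicate 1 (rank 1321), 31.9 in replicate 2 (rank 1114) and 45.9 in the pool (rank 1280). The rps-29 summit was the farthest among the bound genes, 507 bp upstream, and only 60 bp from the start of snt-2, a synaptotagmin gene. It was also the richest of these windows in G and C, at 60.4% of the bases, where the members' median was 48.5% and the lowest 39.6%.

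In the body and platform, rps-1 (WBGene00004470, III, 4475918 to 4476876, plus strand) had the highest signal of all 33 genes. Its protein lies on the platform near the exit of the messenger RNA. The signal was 76.2 in replicate 1 (rank 106), 132 in replicate 2 (rank 101) and 205 in the pool (rank 99), and the summit lay 258 bp upstream of rps-1, whose start was the nearest. The gene rps-26 (WBGene00004495, I, 14759930 to 14760626, plus strand) also encodes a protein at the exit. It had a signal of 20.6 in replicate 1 (rank 1077), 38.0 in replicate 2 (rank 842) and 59.0 in the pool (rank 846). Its summit was 422 bp upstream and 35 bp from the start of tmem-107, a transmembrane protein gene linked to cilia. The signal of rps-1 was thus above that of every other member in the pool and in replicate 2, and below that of rps-12 in replicate 1.

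The gene rps-4 (WBGene00004473, IV, 7083696 to 7084682, minus strand) encodes a body protein. Its signal was 22.4 in replicate 1 (rank 944), 22.5 in replicate 2 (rank 1879) and 51.1 in the pool (rank 1071), with the summit 316 bp upstream and in the window of no other gene. The gene rps-23 (WBGene00004492, IV, 12390298 to 12391053, minus strand) encodes a protein of the decoding centre. Here the replicates differed, with a signal of 10.6 in replicate 1 (rank 2971, outside its top list), 38.0 in replicate 2 (rank 841) and 50.9 in the pool (rank 1077). Its summit lay 282 bp upstream, and 252 bp from the start of dpm-3, which encodes a dolichol-phosphate mannosyltransferase subunit. The gene rps-0 (WBGene00004469, III, 4753007 to 4754051, minus strand) encodes a protein at the junction of head and body. It went the other way, with 26.8 in replicate 1 (rank 679), 21.98 in replicate 2 (rank 1948) and 48.8 in the pool (rank 1150). The rps-0 summit was 306 bp upstream and 67 bp from the start of rbg-3, a Rab GTPase-activating protein gene.

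The other 5 bound genes had lower signals, and at 3 of them the peak was outside the top list of a replicate. The platform gene rps-13 had a signal of 20.2 in replicate 1 (rank 1111), 27.3 in replicate 2 (rank 1418) and 45.7 in the pool (rank 1286), with a summit 205 bp upstream and 177 bp from nfx-1, an NF-X1 homolog. The body gene rps-24 had 18.1, 26.8 and 45.4 in the same order, at 290 bp, in no other gene's window. Both genes were in each replicate's top list. The head gene rps-17 had a signal of 18.1 in replicate 1 (rank 1320), 18.9 in replicate 2 (rank 2435, outside the top list) and 38.8 in the pool. The platform gene rps-14 had 19.9, 17.01 (rank 2833, outside the top list) and 37.6. The gene rps-21, whose protein lies beside that of rps-0, had 7.56 (rank 5230, outside the top list) in replicate 1, 30.3 (rank 1222) in replicate 2 and 36.8 in the pool, the lowest signal of a bound member. Their summits were 262, 248 and 334 bp upstream, and those of rps-17 and rps-21 lay in no other gene's window.

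The remaining 16 genes had no IDR summit in the window, and 14 of them had a peak in the relaxed pooled list, with signals from 6.43 to 31.3 and a median of 18.5. Just outside the IDR limit were rps-30 and rps-3, whose proteins line the entry of the messenger RNA, and the body gene rps-11. The signal of rps-30 was 16.1 in replicate 1 (rank 1593), 12.2 in replicate 2 (rank 4969) and 31.3 in the pool (rank 2216). That of rps-3 was 27.8 in replicate 2 (rank 1387) and 29.7 in the pool (rank 2357), with no peak in replicate 1. At rps-11 it was 17.3 in replicate 1 (rank 1426), 11.3 in replicate 2 (rank 5755) and 29.02 in the pool (rank 2443). Each of these 3 genes was thus in the top list of exactly 1 replicate. In the pooled list 23 of the 33 genes (69.7%) were within the first 3000 peaks, which reached 8.85% of all genes.

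The next in order were rps-10 of the head (pooled signal 27.5, rank 2632), ubl-1, which encodes a ubiquitin-like domain fused to a ribosomal protein (26.7, rank 2755), and rps-5 of the head, near the exit of the messenger RNA (25.5, rank 2923). None of these 3 was in a top list. For ubl-1 the nearest IDR summit lay 2235 bp upstream, outside the window. Lower pooled signals were found for the body genes rps-22 (19.02), rps-27, a zinc-binding protein (18.02), and rps-8 (16.8), and for rps-25 (16.01), a head protein used by viral internal ribosome entry sites. The gene rack-1, for a signalling scaffold on the head, had 15.3, and rps-6, for the target of S6 kinase, had 12.6. The lowest were rps-2 (10.3), for a protein at the entry of the messenger RNA, and the body gene rps-7 (6.43, rank 28122 of 28651). At rps-22 the replicates were far apart, with 2.41 (rank 29260) in replicate 1 and 17.5 (rank 2715) in replicate 2.

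Only rps-16 and rps-9 had no pooled summit in the window. The protein of rps-16 has a tail that reaches the transfer RNA in the P site, and that of rps-9 lies at the entry of the messenger RNA. The gene rps-16 had a peak in replicate 2 alone (4.69, rank 28473), and rps-9 in replicate 1 alone (9.49, rank 3562). Upstream of rps-16 the nearest IDR summit, 1764 bp away, had a signal of 42.6 and lay 82 bp upstream of fib-1, the fibrillarin gene, which precedes rps-16 on the same strand with a gap of 109 bp. A summit that far from the rps-16 start was not counted for it.

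Among genes past the IDR limit, the signals of the members were close to the middle. Their median in the IDR set was 51.1, from 36.8 to 205, and that of all 1308 bound genes was 52.5, so the members' median stood at percentile 47.4. In replicate 1 the medians were 22.4 for the members and 21.1 for all genes in the top list (percentile 54.6), and in replicate 2 they were 38.0 and 33.8 (percentile 58.7). Over all genes with a peak in the pooled list, without that limit, the members stood higher, with a median of 37.6 for 31 members against 12.001 for 8369 genes (percentile 87.3). Among genes with only a relaxed pooled peak, the 14 members had a median of 18.5 against 10.7 over all such genes (percentile 83.0). Within the first 500 peaks of the pooled list there were 12.1% of the members and 1.60% of all genes, and within the first 1000 the shares were 24.2% and 3.20%.

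**Figure D2:**
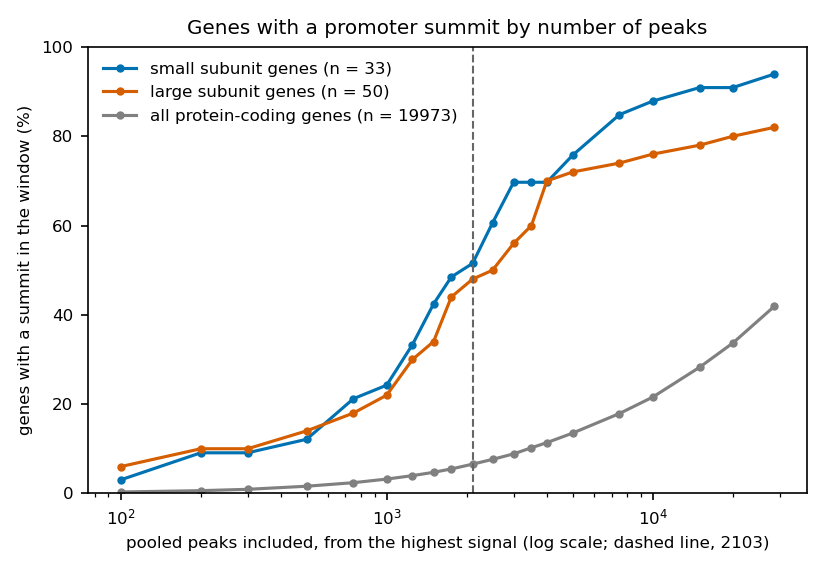
Percentage of the small subunit genes, large subunit genes and all protein-coding genes with a promoter peak, against the number of highest-signal pooled peaks counted (log axis). At 2103 peaks the shares are 51.5%, 48% and 6.55%, and at 5000 peaks they are 75.8%, 72% and 13.5%.

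The ranks of the genes were related between the replicates. Over the 28 members with a relaxed peak in both replicates the Spearman correlation of the signals was 0.793, and over the 17 bound members it was 0.689. Over all genes with a peak in both it was 0.659 (5286 genes), and over the bound genes 0.638 (1301 genes). These values share the same pair of libraries and are a description. The summits of bound members in the replicates were a median of 22 bp apart, from 2 to 102 bp. Bound genes were chosen by IDR, which keeps peaks that agree between these same replicates. Their correlations and summit distances are therefore partly set by that choice and do not measure agreement independently.

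Head and body genes had nearly equal shares in the IDR set. Of the 15 genes for head proteins, 8 (53.3%) had an IDR summit, 8 were in the top list of each replicate and 7 (46.7%) were in both. Of the 18 genes for body and platform proteins, 9 (50%) had an IDR summit. In the top lists were 9 for replicate 1, 8 for replicate 2 and 6 (33.3%) for both. The matching shares of all genes were 6.55% for IDR, 6.36% and 6.46% for replicates 1 and 2, and 4.57% for both. Differences between head and body were not tested. By chromosome, 5 of 8 genes on I were bound, 7 of 10 on III, 5 of 11 on IV, 0 of 3 on V and 0 of 1 on II. Over all genes the share bound was 6.60% on I, 9.47% on III, 6.28% on IV, 4.21% on V and 5.80% on II. The 4 genes on II and V are rps-9, rps-16, rps-27 and rps-30, of which rps-30 had the highest pooled signal.

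All 17 summits lay upstream of the annotated starts, with a median distance of 290 bp, quartiles at 258 and 371 bp, and a range of 170 to 507 bp. Over all bound genes the median was 267 bp, but the quartiles were farther apart, at 142 and 482 bp, and 4.51% (59) were downstream of the start. The 31 genes with a pooled summit also had a median of 290 bp, with a range of 136 to 625 bp. The 24 bound large subunit genes had quartiles at 253.5 and 361 bp, so the closer quartiles were not particular to the small subunit.

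**Figure D3:**
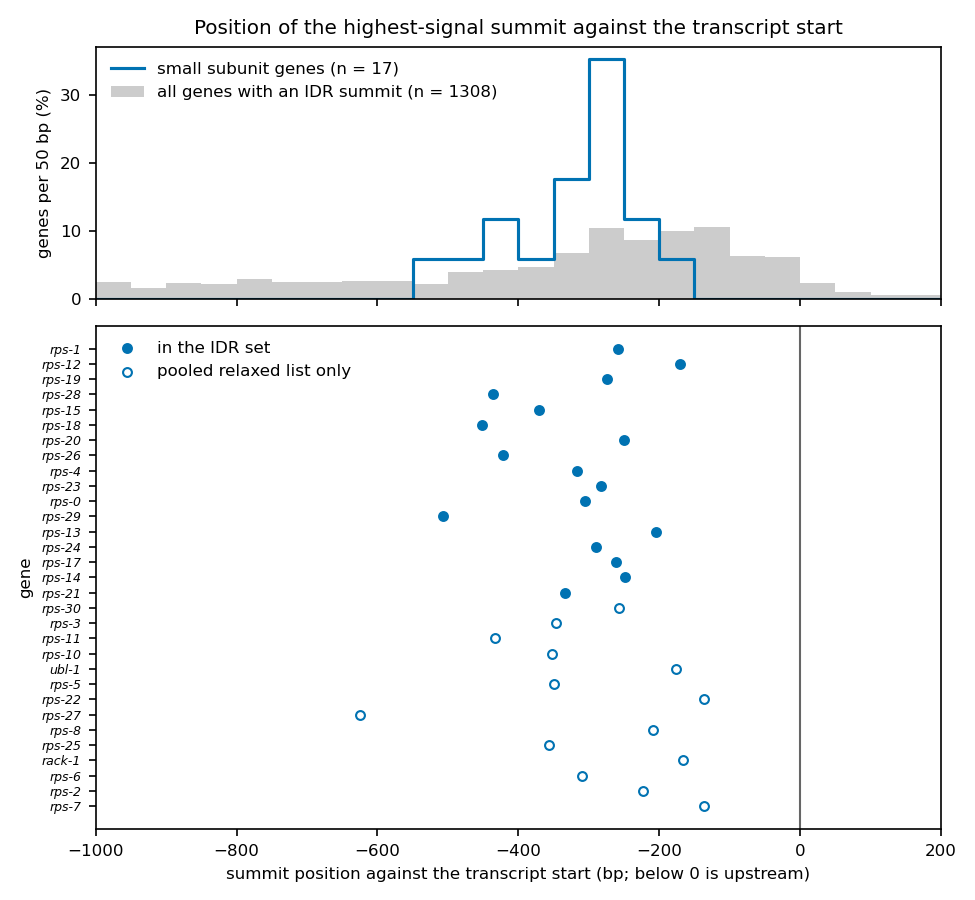
Position of the highest-signal summit against the annotated start. The upper panel gives the percentage of genes by position for the bound small subunit genes and all bound protein-coding genes. The lower panel gives each small subunit gene with a pooled summit, filled if in the IDR set and open if in the relaxed pooled list only. The 17 bound small subunit summits lie between 170 and 507 bp upstream, with 6 of them between 250 and 300 bp.

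A promoter peak was often shared with a neighbouring gene. At 13 of the 17 bound genes (76.5%) the summit also lay in the window of at least 1 other gene, compared with 41.9% of all bound genes (548 of 1308). Among the bound large subunit genes the share was 70.8% (17 of 24), so such sharing was not particular to the small subunit. At 9 of the 17 bound small subunit genes another gene's start was nearer to the summit, namely hsr-9, ska-3, sec-61.A, ekl-4, tmem-107, dpm-3, rbg-3, snt-2 and nfx-1. Counting each peak for its nearest start alone left 8 members (24.2%), against 5.08% of all genes, and 77.1% of all bound genes held the nearest start to their peak. By that rule 16 of 50 large subunit genes (32%) were bound, a higher share than that of the members. The 4 members (12.1%) whose summit was in no other window were rps-4, rps-24, rps-17 and rps-21. For the large subunit this count was 7 of 50 (14%), and these differences were not tested. Which of 2 genes a shared peak serves cannot be told from its position.

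The layout of the genes runs with this. Of the 33 genes, 24 (72.7%) had a neighbour upstream on the opposite strand, pointing away, compared with 46.2% of all genes, and at 19 (57.6%) that neighbour was within 1000 bp, compared with 17.2%. Among the bound members 12 of 17 (70.6%) had such a close divergent neighbour, as did 33.2% of all bound genes, and among the 16 others 7 did. Counted the other way, 12 of the 19 members with such a neighbour were bound, and 434 of the 3438 such genes overall. The part of this layout in the count of bound members was not tested. In 3 cases the neighbour was a large subunit gene: rps-14 faced rpl-36 across 662 bp, rps-30 faced rpl-39 across 498 bp, and rps-10 faced rpl-24.1 across 609 bp. Of these 3, only the rps-14 window held an IDR summit.

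The motifs searched for were found at few member summits, and no difference from other peaks was tested. CACGTG was within 50 bp of 1 of 17 member summits (5.88%, rps-29), whereas 15.97% of the 1102 IDR peaks in promoter windows and 17.2% of all IDR peaks had it. GAGAGA was at 1 of 17 (rps-1), against 29.8% of promoter peaks, and CTGCGTCT at 0 of 17, against 12.9%. CATGTG and TGATAA were also at 0 of 17, where 9.26% and 7.53% of promoter peaks had them. At the 24 large subunit peaks CACGTG was at 1, GAGAGA at 2 and CTGCGTCT at 1. Within 100 bp of the summit GAGAGA was at 3 of 17 member peaks (17.6%), against 45.4% of promoter peaks. In the top list of replicate 1, CACGTG was at 0 of 17 member summits, GAGAGA at 3 and CTGCGTCT at 1, against 13.7%, 29.2% and 12.03% of that list's promoter peaks. With 17 peaks these counts are small, and the absence of these letters from a window of 101 bp says nothing more about the factor. In windows 500 bp to either side of the member summits, CACGTG was in 0 of 34 and GAGAGA in 2 of 34.

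The other motifs were also at few member summits, and no difference from promoter peaks was tested. AATTAA was at 3 of 17 member summits (rps-17, rps-18 and rps-21; 17.6%), against 4.17% of promoter peaks, and in 4 of 34 flanks. TATAAA was at 2 of 17 (rps-0 and rps-21; 11.8%), against 4.63%, and in 3 of 34 flanks. GGGCGG was at 1 of 17 (rps-28), against 5.63%, and in 1 of 34 flanks. At the 24 large subunit peaks AATTAA was at 1, TATAAA at 0 and GGGCGG at 1. All these motifs were searched on both strands, and with 1 to 3 peaks each the summits and flanks cannot be ranked. The median G and C content was 48.5% at member summits and 48.5% at all promoter peaks.

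**Figure D4:**
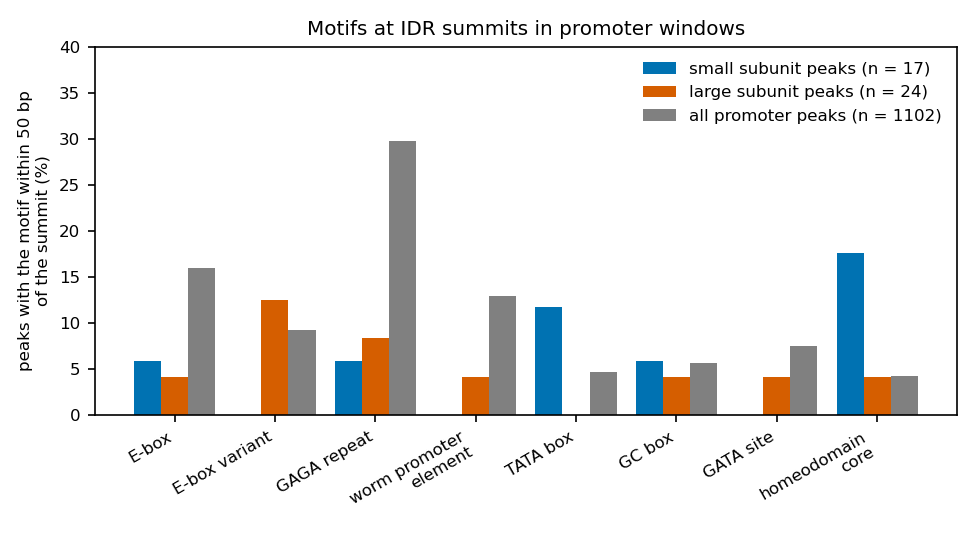
Percentage of peaks with each of 8 motifs within 50 bp of the summit (both strands) for the 17 small subunit peaks, the 24 large subunit peaks and all 1102 promoter peaks. The motifs CACGTG and GAGAGA are each at 5.88% of the small subunit peaks and CTGCGTCT is at 0%, and the 3 are in the same order at 15.97%, 29.8% and 12.9% of promoter peaks.

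The 8-letter words in capitals in the second set of sequences were each at 4 of 17 member summits. GCAGCCAA was at rps-0, rps-14, rps-19 and rps-21, at 0.907% of all promoter peaks and at 1 of 24 large subunit peaks. TACGGTAA was at rps-1, rps-13, rps-17 and rps-23, at 1.72% of promoter peaks and at 5 of 24 large subunit peaks. In the 500 bp upstream of starts GCAGCCAA was found for 6 of 33 members and 0.926% of all genes, and TACGGTAA for 5 of 33 and 2.03%. Of the words found upstream of less than 5% of all genes, AAAGGCGC was upstream of the most members, 10 of 33, against 3.22% of all genes. It was upstream of 3 of the 17 bound and 7 of the 16 other members. All these words were picked because they were frequent among the members, so their counts are no test.

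The proteins of the large subunit gave a like picture. Of 50 genes (rpl- and rla-), 24 (48%) had an IDR summit, 22 (44%) were in the top list of replicate 1 and 20 (40%) in that of replicate 2, a mean of 42% ± 2.83 (SD, n = 2), and the difference from the small subunit was not tested. Their median signal was 52.8 and their median summit was 293 bp upstream, with rpl-15 (325), rpl-3 (289) and rpl-35 (216) highest, all above rps-1. A divergent neighbour within 1000 bp was found for 29 of 50 (58%). Among the mitochondrial small subunit genes 2 of 29 (6.90%), mrps-7 and mrps-21, were bound, close to the share of all genes. Translation initiation factors gave 5 of 34 (14.7%), with iff-2 (421), an eIF5A gene, eif-3.C (67.2) and eif-2Bgamma (65.5) highest. A list of nucleolar and assembly factors, in which larp-1 was also placed, gave 5 of 26 (19.2%), with larp-1 (97.0), lpd-7 (57.4) and fib-1 (42.6) highest.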

How the data were processed

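ChIP-seq peaks were taken from the authors' deposited lists in build ce11 for 2 replicates of 1 group. The signal values are the authors' own. Their scaling is not given in the sources used here, nor are aligner, peak caller and IDR threshold. Depth is unknown, and no interval could be based on it. DNA fragments were of 150 to 350 bp, per the labels. Lists in ce10 were not used. Per gene, the highest-signal summit was kept that lay at most 1000 bp before or 200 bp after a transcript start (Ensembl release 115, WBcel235). A summit counted for every gene whose window held it. Replicate lists were cut to 2103 peaks and matched to IDR peaks by an overlap of at least 1 bp. Both strands were searched for motifs within 50 bp of summits and of points 500 bp away. Every member is named, the 12 of highest IDR signal with full values, and up to 3 genes per other list. The names iftb-1, nol-1 and nol-5 matched no gene. Members, motifs and lists were chosen with earlier results of these data known. No test was run on the members, and SDs cover 2 replicates. Scripts were tested on simulated data. Tools were matplotlib 3.10.9, scipy 1.17.1, pandas 2.3.3 and numpy 2.4.6 under Python 3.11.15.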

Additional observations from a re-analysis of the deposited data

How the results depend on the processing

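The count of 17 bound genes fell to 8 with the 1000 IDR peaks of highest signal (3.20% of all genes) and to 4 with the first 500 (1.60%). It fell to 8 with the nearest start only (5.08%) and to 4 when a summit had to lie in no other gene's window (3.83%). It rose to 31 with all pooled peaks (41.9%). It was 16 with a window of 500 bp upstream to 100 bp downstream (5.02%) and 18 with 2000 bp upstream (8.82%, the added gene being rps-16). It was 13 with both top lists (4.57%) and 17 from gene 5′ ends, where no share of all genes is at hand. Replicate 1 alone gave 17 (6.36%) and replicate 2 alone 16 (6.46%). The percentile of the members' median signal, 47.4, was 53.4 in the narrow window, 42.1 with the nearest start, 30.5 with no other gene and 54.6 to 58.7 with each replicate alone. The count of 13 for both replicates was 13 under both stricter overlap rules and 16 with 5000 peaks of each replicate. For these settings no share of all genes is at hand. Within 100 bp of the summit CACGTG stayed at 1, GAGAGA came to 3 and CTGCGTCT to 0; each replicate alone gave 0 to 1, 1 to 3 and 0 to 1. The median distance of 290 bp was 286 bp in the narrow window, 298 bp in the wide window and 302 to 313 bp with each replicate alone. The causes were not tested. No paired analysis was possible because the replicates form 1 group. With 2 replicates, unknown depth and whole animals, the lists cannot show differences between genes near the IDR limit, and ce10 lists were not run.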
